A study of Mus musculus with 10 samples.

Results

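The genes described here carry out or control the copying of DNA and cell division. The list held 34 genes, of 26124 measured on the arrays after filtering. It was made up of 16 genes that act in S-phase, 6 that control the step from G1 into S-phase and 12 that act in G2 and mitosis. Probes were matched to the genes through the RefSeq accession of each array probe, and 31 of the 34 had a probe. The probe with the highest mean signal stood for a gene with several. After the filter on dim probes and missing values, 27 were tested: 13 of the 16 S-phase genes, 5 of the 6 G1/S genes and 9 of the 12 G2/M genes.

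Livers came from male C57BL/6N mice given 1 of 3 gavages: ethanol at 7 g/kg (3 arrays), ethanol at 5 g/kg (4 arrays), or maltose with the calories of 5 g/kg ethanol (3 arrays). The maltose dose was thus matched to the lower ethanol dose only. The labels give no age and no time between gavage and collection, and an untreated group was not analysed here. Each array compared Cy5-labelled cDNA of total liver RNA with one Cy3-labelled commercial mixture of mouse RNA, and values below are log2 ratios of liver over that reference. The labels do not tie arrays to animals, so p-values measure the spread between arrays.

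Ordered entry into the cell cycle begins with cyclin D and cyclin E kinases, which release E2F factors to switch on the genes for making deoxynucleotides, loading the MCM helicase and running the replication fork. A later wave, driven through FOXM1 and related factors, supplies the cyclin B kinase and the spindle and chromosome proteins of mitosis. Hepatocytes of the adult liver are mostly quiescent and re-enter the cycle after injury or loss of tissue, while blood cells passing through the organ can bring transcripts of dividing cells with them. In RNA of a whole tissue, fewer cells of a type and less RNA per cell cannot be told apart.

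One gene of the 27 stood far from the rest at both doses. Tk1, thymidine kinase 1, which phosphorylates thymidine for DNA synthesis, fell 4.20-fold at 7 g/kg and 2.74-fold at 5 g/kg against maltose. At 7 g/kg, 3 more genes passed the test: Rrm2 and Ccne1 were higher, and Mcm7 was lower. At 5 g/kg, Pcna was lower beside Tk1. No G2/M gene passed in any comparison. The 13 tested S-phase genes as a group had a median change near 0 (0.03 at 7 g/kg and 0.00 at 5 g/kg against maltose, on the log2 scale). At 5 g/kg this median depended on dim probes. Over the 8 S-phase genes well above background on all 10 arrays it was -0.177, beside 0.01 over all genes under that filter.

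Promoter windows are shown first for 3 of these genes and for Afmid, the gene next to Tk1. Tk1 and Afmid start next to each other, and a link between the windows and the array values was not tested. Each window runs from 250 bases before to 50 bases after the RefSeq start site, 5′ to 3′ on the gene's own strand. In the Tk1 and Afmid windows capitals mark the 50 bases after the start. In the Rrm2 and Mcm7 windows capitals mark letters that matched a searched motif. Mcm7 had 2 annotated starts, and the first is shown.
Tk1, GRCm38.p6 chr11:117825965-117826264, minus strand: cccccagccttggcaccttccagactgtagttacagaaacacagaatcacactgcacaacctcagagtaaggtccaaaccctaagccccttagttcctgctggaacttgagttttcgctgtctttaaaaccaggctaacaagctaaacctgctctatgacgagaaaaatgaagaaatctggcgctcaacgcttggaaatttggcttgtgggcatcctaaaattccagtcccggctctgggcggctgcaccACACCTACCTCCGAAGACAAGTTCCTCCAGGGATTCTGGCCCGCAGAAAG
Afmid, GRCm38.p6 chr11:117825669-117825968, plus strand: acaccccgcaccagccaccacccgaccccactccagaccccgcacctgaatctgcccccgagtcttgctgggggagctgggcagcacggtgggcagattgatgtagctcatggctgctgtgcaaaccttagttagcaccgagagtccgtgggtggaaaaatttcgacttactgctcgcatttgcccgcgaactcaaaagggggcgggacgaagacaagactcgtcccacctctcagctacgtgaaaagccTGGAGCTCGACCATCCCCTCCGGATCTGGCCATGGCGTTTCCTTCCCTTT
Rrm2, GRCm38.p6 chr12:24708004-24708303, plus strand: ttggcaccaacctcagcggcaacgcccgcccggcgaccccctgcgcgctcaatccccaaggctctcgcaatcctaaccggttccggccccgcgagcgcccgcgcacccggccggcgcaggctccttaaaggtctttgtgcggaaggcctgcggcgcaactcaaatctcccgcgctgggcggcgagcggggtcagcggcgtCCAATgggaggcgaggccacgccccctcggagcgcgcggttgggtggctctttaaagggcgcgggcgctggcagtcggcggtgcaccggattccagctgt
Mcm7, GRCm38.p6 chr5:138171834-138172133, minus strand: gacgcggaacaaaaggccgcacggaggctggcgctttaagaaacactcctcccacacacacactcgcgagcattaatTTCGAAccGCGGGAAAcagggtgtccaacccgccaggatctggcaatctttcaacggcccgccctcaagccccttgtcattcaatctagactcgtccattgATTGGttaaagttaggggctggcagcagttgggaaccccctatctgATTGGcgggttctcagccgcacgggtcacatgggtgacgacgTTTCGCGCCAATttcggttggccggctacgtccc

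The Tk1 and Afmid genes lie on opposite strands, and their annotated start sites lie 95 bases apart. Each gene reads towards the start of the other. The windows share 4 bases, which are the last of each window, after both starts. The strings searched on both strands were the E2F-type letters TTTCCCGC, TTTGGCGC, TTTCGCGC and TTTGCCGC, the CHR letters TTTGAA and TTCGAA, and CCAAT. The Mcm7 window held E2F-type letters beginning 165 bases before and 16 bases after the start, TTCGAA, which reads the same on both strands, and 3 CCAAT, of which 1 overlaps the second E2F-type match by its first base. The Rrm2 window held 1 CCAAT, 50 bases before its start, and the Tk1 and Afmid windows held none of these letters. Windows were on hand for 27 of the 34 genes. E2F-type letters were present in 7 of 14 S-phase windows, 1 of 4 G1/S windows and 1 of 9 G2/M windows, against 2.60% of the windows of all 27025 genes. CHR letters were present in 7 of 9 G2/M windows (Aurka, Bub1, Ccnb2, Cdc20, Cdk1, Mki67 and Top2a) and 2 of 14 S-phase windows (Mcm2 and Mcm7), against 21.7% of all. CCAAT was present in 8 of 9 G2/M windows and 10 of 14 S-phase windows, against 41.1% of all. A match is a string of letters, not a shown binding site. Only these exact strings were searched, so a site spelled otherwise would be missed, in the Tk1 and Afmid windows too.

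Signal set what could be seen. Median Cy5 intensity per array was 121 to 219 over a background of 21 to 24, and 67.3% to 86.2% of spots were well above background in Cy5. The arrays lay on 4 slides, none of which held 1 group alone. Of the 27 tested genes, 18 were well above background on all 10 arrays. The other 9 (Rrm2, Mcm2, Mcm5, Pola1, Prim1, Cdk2, Ccnb1, Cdk1 and Top2a) were so on 3 to 9 arrays, and the offset of 50 added to both channels pulls the ratios of such dim probes towards 0. Cdc6, which loads the MCM helicase, Aurkb, a kinase of chromosome separation, and Bub1, a spindle checkpoint kinase, were not well above background on enough arrays: 1, 0 and 1 of the 10. Gins1, Ccnd1 and Mki67 had no probe matched by accession. Lig1, the ligase that joins Okazaki fragments, was bright on all 10 arrays, but spots marked as outliers left only 1 of its 4 values at 5 g/kg. With those spots kept, Lig1 ran from 0.13 to 0.24 at 7 g/kg, 0.05 to 0.26 at 5 g/kg and -0.02 to 0.17 in maltose livers, with changes against maltose of 0.13 (adjusted p = 0.573) and 0.08 (adjusted p = 0.786). Without the filter on dim probes, the changes of Cdc6, Aurkb and Bub1 were -0.08 to 0.06 at 7 g/kg and -0.02 to 0.00 at 5 g/kg against maltose.

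Changes were tested with limma in 1 fit of the 3 groups, two-sided, with Benjamini-Hochberg adjustment over all 26124 genes and a threshold of 0.05. Between 7 g/kg and maltose, 4 of the 27 genes passed, where 9.01% of all genes did (4.66% higher and 4.35% lower). Between 5 g/kg and maltose, 2 of 27 passed, against 3.80% of all genes (2.23% higher and 1.57% lower). Between 7 and 5 g/kg, 1 of 27 passed, against 1.57% of all (0.662% higher and 0.907% lower). Each of these counts is Tk1 and at most 3 further genes. The ethanol and maltose arrays did not overlap for 7 of the 27 genes at 7 g/kg and 6 at 5 g/kg, against 25.4% and 16.9% of all genes. The 2 comparisons with maltose share the maltose arrays.

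**Figure D1:**
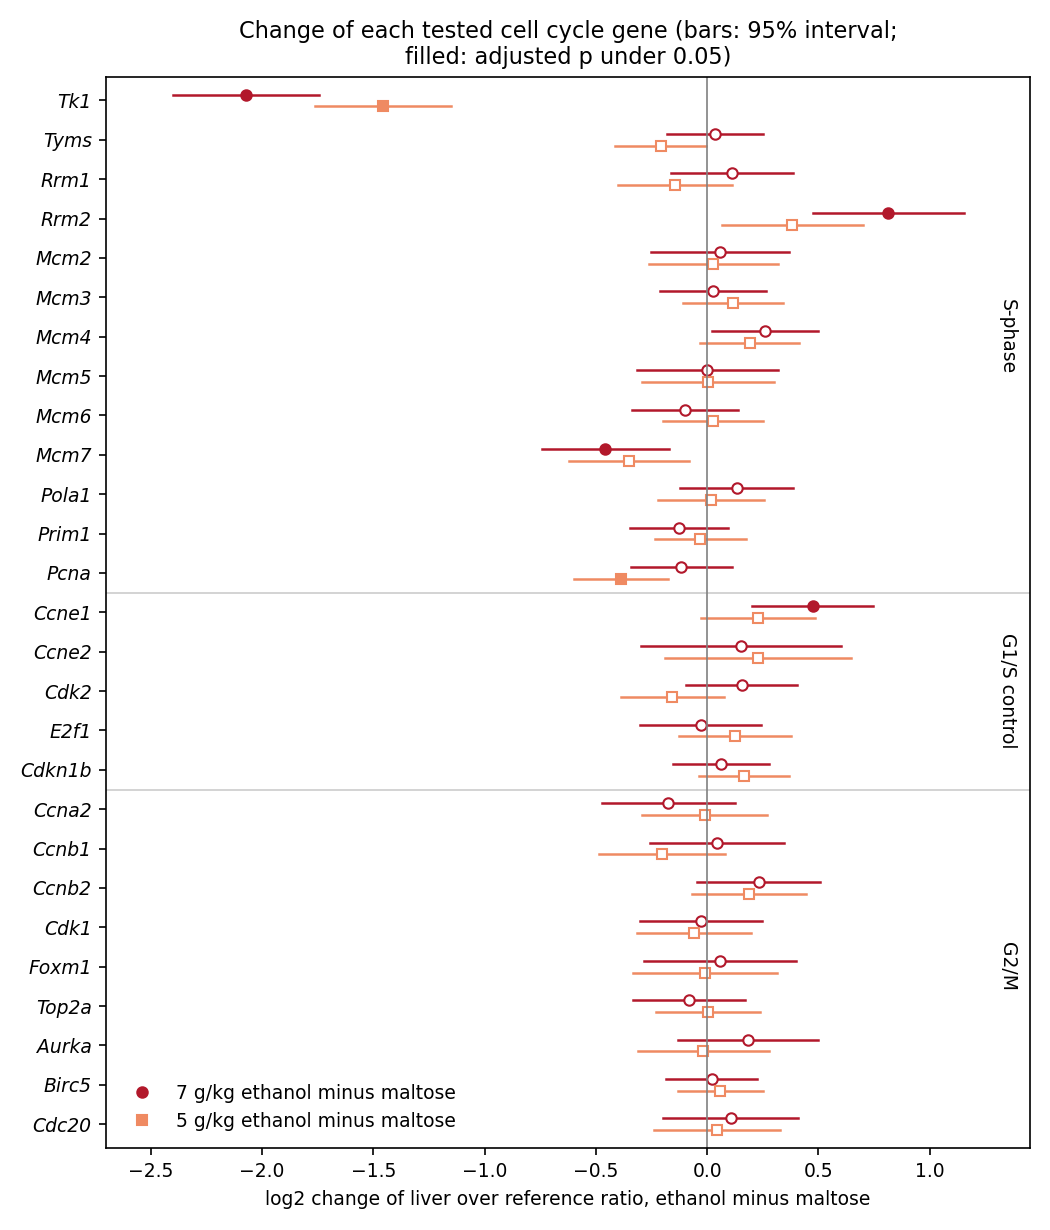
Log2 change of each of the 27 tested genes at 7 g/kg (circles) and at 5 g/kg (squares) against maltose, with 95% intervals; filled symbols passed the adjusted threshold of 0.05, and rows are grouped into S-phase, G1/S control and G2/M. Tk1 lies at -2.07 and -1.46, apart from all others, and every G2/M symbol is open.

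The 4 genes of nucleotide supply moved in different directions. Tk1 had log2 ratios of -1.06, -1.03 and -0.98 in 7 g/kg livers, -0.57, -0.27, -0.58 and -0.20 in 5 g/kg livers, and 0.72, 1.07 and 1.36 in maltose livers. All 3 groups were separate, and every ethanol array lay under every maltose array. The change at 7 g/kg against maltose was -2.07 (SE 0.15, adjusted p = 1.88e-06), and at 5 g/kg it was -1.46 (SE 0.14, adjusted p = 6.79e-05). Both calls held under each of 15 other processing settings and without each of the 10 arrays, and both passed with the slide as a block. Within single slides the 7 g/kg change was -2.34 and -2.13, and the 5 g/kg change was -1.56, -1.29 and -1.34. The difference between the doses was -0.62 (SE 0.14, 1.53-fold lower at 7 g/kg, adjusted p = 0.0465), with -0.45, -0.78 and -0.79 within slides. That call was close to the threshold: it was lost without any 1 of 7 arrays (all 3 at 7 g/kg, arrays 1, 2 and 4 at 5 g/kg, and maltose array 2), where the difference was -0.55 to -0.67 and the adjusted p reached 0.152. It was also lost under 5 of 15 settings: plain background subtraction, processed signals, Cy5 alone, the deposited series table and the replicate block (-0.55 to -0.76, adjusted p of 0.0681 to 0.911).

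Rrm2, the regulated small subunit of ribonucleotide reductase, which makes deoxynucleotides, went the other way. Its ratios were 0.53, 0.11 and 0.49 at 7 g/kg, 0.05, -0.05, -0.28 and 0.06 at 5 g/kg, and -0.73, -0.46 and -0.13 in maltose livers. The 7 g/kg arrays were all above the others, and array 3 at 5 g/kg lay under maltose array 3. At 7 g/kg it rose by 0.81 (SE 0.16, adjusted p = 0.00447) over maltose, and within slides by 0.61 and 0.98. At 5 g/kg the change was 0.38 (adjusted p = 0.208), and the doses differed by 0.43 (adjusted p = 0.246). The probe was well above background on all 7 ethanol arrays but on only 1 of the 3 maltose arrays, and the size of the rise differed between processing settings. With the scanner's processed signals, which differ from the main values in background correction, dye balance and normalization at once, it was 1.89 (adjusted p = 0.0341). Taken from Cy5 alone it was 0.67 and did not pass (adjusted p = 0.358).

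Rrm1, the large subunit of the same enzyme, and Tyms, thymidylate synthase, which makes thymidylate from dUMP, did not pass. Rrm1 was -0.13 to 0.26 at 7 g/kg, -0.31 to 0.08 at 5 g/kg and -0.10 to 0.08 in maltose livers, with changes of 0.11 (adjusted p = 0.729) and -0.14 (adjusted p = 0.654) against maltose. Tyms was 0.04 to 0.16 at 7 g/kg, -0.23 to -0.03 at 5 g/kg and 0.03 to 0.17 in maltose livers. Its 5 g/kg arrays lay under all arrays of the other groups, but the change of -0.21 against maltose had an adjusted p of 0.302, and a second Tyms probe gave -0.15.

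The MCM genes encode the 6 subunits of the helicase that unwinds DNA at the fork, and only Mcm7 passed. Mcm7 had ratios of -0.23, -0.40 and -0.23 at 7 g/kg, 0.16, -0.26, -0.33 and -0.30 at 5 g/kg, and 0.20, 0.28 and 0.03 in maltose livers. The 7 g/kg arrays were all under the maltose arrays, and 1 array at 5 g/kg lay among the maltose values while the other 3 lay beside the 7 g/kg ones. The change was -0.46 (SE 0.13, adjusted p = 0.0464) at 7 g/kg and -0.35 (SE 0.12, adjusted p = 0.163) at 5 g/kg. At 7 g/kg the call was lost under 4 of 15 settings: plain background subtraction (-0.54, adjusted p = 0.0541), median centring in place of loess (-0.39, adjusted p = 0.117), Cy5 alone (-0.31, adjusted p = 0.558) and the slide as a block (-0.33, adjusted p = 0.166). It was also lost without any 1 of 7 arrays (all 3 at 7 g/kg, array 2 at 5 g/kg and all 3 maltose arrays, -0.40 to -0.53). It was 1.5 times larger or more with the processed signals (-0.72) and in the deposited series table (-0.74). At 5 g/kg it passed without array 1 (-0.46, adjusted p = 0.0395). Mcm2 to Mcm6 had changes of -0.10 to 0.26 at 7 g/kg and 0.00 to 0.19 at 5 g/kg against maltose. The largest of these was Mcm4, at 0.24, 0.39 and 0.04 in 7 g/kg livers, 0.14, 0.27, 0.08 and 0.12 in 5 g/kg livers, and -0.11, 0.02 and -0.03 in maltose livers. Every ethanol array of Mcm4 lay above every maltose array, yet the changes of 0.26 (adjusted p = 0.198) and 0.19 (adjusted p = 0.424) did not pass.

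At the fork itself, Pcna, the sliding clamp that holds DNA polymerase on its template, passed at 5 g/kg, where it was lower than in maltose livers. Pcna had ratios of 0.05, -0.08 and 0.10 at 7 g/kg, -0.30, -0.10, -0.31 and -0.26 at 5 g/kg, and 0.14, 0.23 and 0.05 in maltose livers. Its 5 g/kg arrays lay under all arrays of both other groups. The change at 5 g/kg was -0.39 (SE 0.10, adjusted p = 0.0433), and -0.32, -0.45 and -0.33 within slides. At 7 g/kg it was -0.12 (adjusted p = 0.638), and the doses differed by 0.27 (adjusted p = 0.286), so a difference between the doses was not shown. The 5 g/kg call was lost under 8 of 15 settings, among them the slide as a block (-0.36, adjusted p = 0.0798), with values of -0.30 to -0.47 and adjusted p of 0.0543 to 0.604. It was also lost without any 1 of 7 arrays (array 1 at 7 g/kg, arrays 1, 3 and 4 at 5 g/kg, and all 3 maltose arrays, -0.34 to -0.43). Pola1, the catalytic subunit of the polymerase that starts each strand, had changes of 0.13 and 0.02, and Prim1, its primase partner, of -0.13 and -0.03, at 7 and 5 g/kg. Both were dim: Pola1 was well above background on 3 arrays, and Prim1 on none of the 3 at 7 g/kg, so its value there is only a bound.

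**Figure D2:**
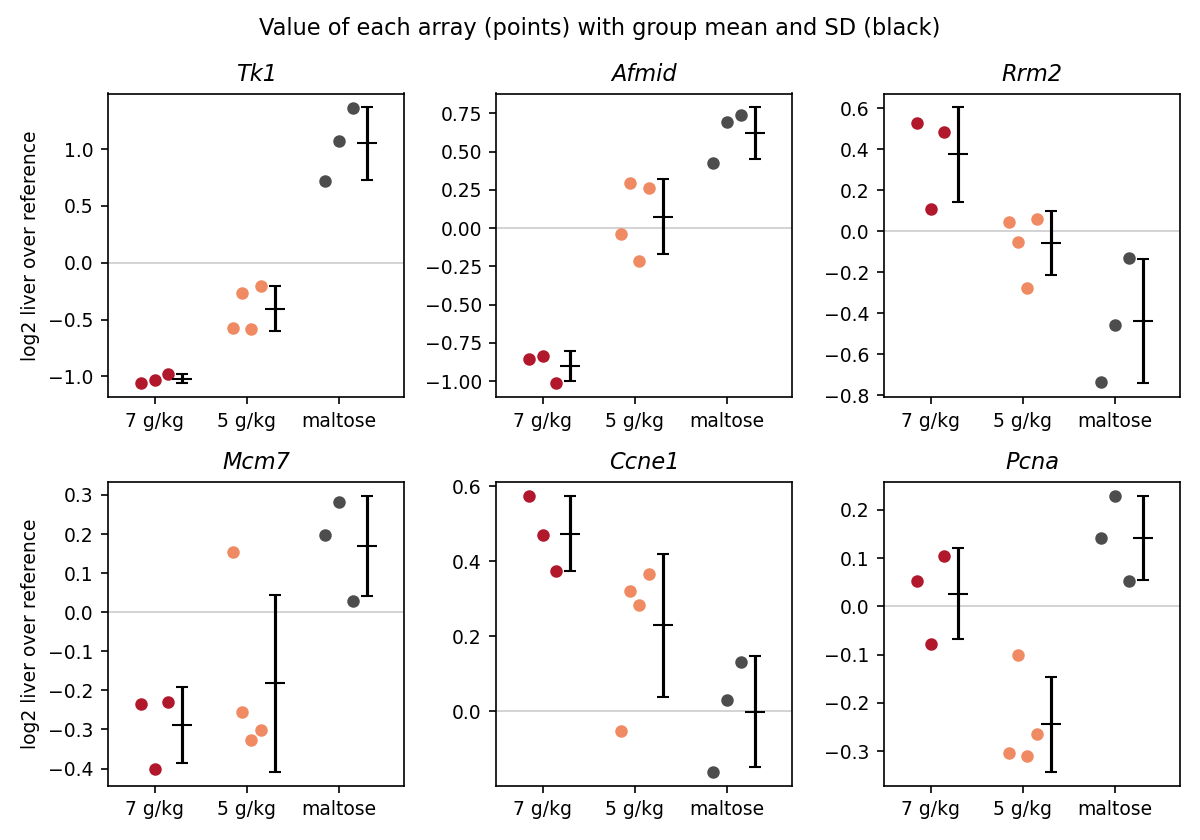
Log2 ratio of liver over reference on each array for the 5 genes that passed the test in any comparison and for Afmid, with 7 g/kg left of 5 g/kg and maltose; black marks give group means with SD (n = 3, 4 and 3), and each panel has its own axis. Tk1 and Afmid separate by group, and in the Mcm7 panel 1 array at 5 g/kg, at 0.16, lies away from the other 3.

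Of the genes that control entry into S-phase, Ccne1 alone passed. Ccne1, cyclin E1, which activates CDK2 at the G1/S step, had ratios of 0.57, 0.47 and 0.37 at 7 g/kg, -0.05, 0.32, 0.28 and 0.36 at 5 g/kg, and -0.16, 0.03 and 0.13 in maltose livers. The 7 g/kg arrays lay above all others, and 3 of the 4 arrays at 5 g/kg lay above the maltose arrays. It rose by 0.47 (SE 0.13, adjusted p = 0.0312) at 7 g/kg, with 0.24 and 0.55 within slides, and had a change of 0.23 (adjusted p = 0.391) at 5 g/kg. A second Ccne1 probe, also bright on all 10 arrays, gave larger changes of 0.85 at 7 g/kg and 0.61 at 5 g/kg, with a wider spread. It ran from -0.06 to 1.04 at 7 g/kg, -0.27 to 0.66 at 5 g/kg and -0.83 to -0.19 in maltose livers. Its 5 g/kg and maltose arrays overlapped. The call at 7 g/kg was lost under 4 of 15 settings: processed signals (0.52, adjusted p = 0.135), the deposited series table (0.49, adjusted p = 0.127), the slide as a block (0.37, adjusted p = 0.0855) and Cy5 alone (0.72, adjusted p = 0.204). It was also lost without any 1 of 4 arrays (arrays 1 and 2 at 7 g/kg and maltose arrays 1 and 2, 0.39 to 0.49).

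Ccne2, the second cyclin E, had the widest spread within a group of the 27 genes (SD 0.46 at 5 g/kg). Its ratios were 0.57, 0.53 and 0.13 at 7 g/kg, 0.40, 0.59, -0.08 and 1.03 at 5 g/kg, and 0.19, 0.25 and 0.33 in maltose livers, with changes of 0.15 (adjusted p = 0.784) and 0.23 (adjusted p = 0.663). Cdk2, the kinase of both, was dim, well above background on 4 arrays, with changes of 0.16 and -0.16. E2f1, a transcription factor of S-phase genes, had changes of -0.03 and 0.13. Cdkn1b, which encodes the CDK inhibitor p27, had changes of 0.06 and 0.16. A second Cdkn1b probe, also bright on all 10 arrays, gave 0.00 and -0.03. The median over the 5 genes was 0.15 at 7 g/kg and 0.16 at 5 g/kg against maltose, beside 0.01 and 0.00 over all genes. At 5 g/kg that median was the value of the chosen Cdkn1b probe.

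None of the 9 tested G2/M genes passed. Limma called 0 of 9 in each comparison, and 0 of 9 had an unadjusted p under 0.05, which 20.1%, 15.5% and 10.8% of all genes had at 7 g/kg against maltose, at 5 g/kg against maltose and between the doses. Their median change was 0.05 at 7 g/kg and -0.01 at 5 g/kg. The 95% intervals of all 9 genes lay between -0.47 and 0.51 at 7 g/kg and between -0.48 and 0.44 at 5 g/kg against maltose, which bounds the changes that these arrays allow on this scale, which the offset compresses. A p-value over the threshold does not show that the levels were equal.

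Birc5, survivin, a subunit of the chromosomal passenger complex, had the smallest standard error of the 9 (0.10 at 7 g/kg): 0.25, 0.33 and 0.31 at 7 g/kg, 0.38, 0.30, 0.29 and 0.38 at 5 g/kg, and 0.22, 0.26 and 0.35 in maltose livers. Its changes were 0.02 (95% interval -0.18 to 0.22) and 0.06 (-0.13 to 0.25). Ccnb2, a B-type cyclin of the mitotic kinase, had the largest change upward, with ratios of 0.24, 0.25 and -0.15 at 7 g/kg, 0.03, 0.18, 0.01 and 0.05 at 5 g/kg, and -0.30, -0.00 and -0.05 in maltose livers. Its changes were 0.23 (adjusted p = 0.357) and 0.19 (adjusted p = 0.521), and the 5 g/kg arrays all lay above the maltose arrays. Ccna2, cyclin A2, had ratios of 0.32, 0.19 and 0.07 at 7 g/kg, 0.67, 0.29, 0.04 and 0.43 at 5 g/kg, and 0.35, 0.39 and 0.36 in maltose livers. The maltose arrays of Ccna2 lay above the 7 g/kg arrays and within the range of the 5 g/kg arrays, with changes of -0.17 (adjusted p = 0.574) and -0.01 (adjusted p = 0.986).

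Among the rest, Aurka, a spindle pole kinase, had changes of 0.18 and -0.02, Cdc20, an activator of the anaphase-promoting complex, of 0.11 and 0.04, and Foxm1, a transcription factor of mitotic genes, of 0.06 and -0.01. The Foxm1 fit used 2 of the 3 maltose arrays, since the spot on the third was an outlier. Top2a, the topoisomerase that untangles chromosomes, had changes of -0.08 and 0.00, Ccnb1, cyclin B1, of 0.05 and -0.20, and its kinase Cdk1 of -0.03 and -0.06. These last 3 were dim on some arrays, with Top2a well above background on 9, Ccnb1 on 7 and Cdk1 on 6. All of these values are log2 changes at 7 and then 5 g/kg against maltose, and none passed the test.

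Array by array, the class medians lay close together. Taking each gene's difference from its maltose mean, the median over the 13 S-phase genes was -0.04 to -0.01 on the 7 g/kg arrays, -0.04 to -0.00 on the 5 g/kg arrays and -0.05 to 0.05 on the maltose arrays. For the 9 G2/M genes it was -0.05 to 0.06, -0.11 to 0.05 and -0.02 to 0.04 on the same arrays. Both ethanol ranges overlapped the maltose range in both classes. Without Tk1 the median change of the remaining 12 S-phase genes was 0.03 at 7 g/kg and 0.01 at 5 g/kg, so Tk1 did not set it. The S-phase genes held 3 of the 4 calls at 7 g/kg and both calls at 5 g/kg, but whether S-phase and mitotic genes differ was not tested, because the members were picked with results of these data known.

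**Figure D3:**
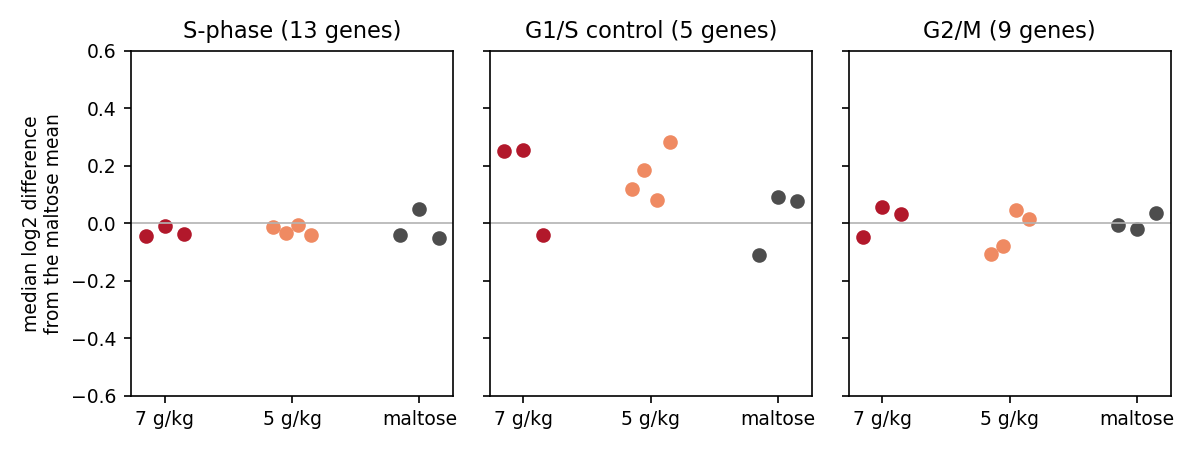
Median over the genes of each class of the log2 difference from the gene's maltose mean, 1 point per array, with 7 g/kg left of 5 g/kg and maltose. S-phase and G2/M medians lie between -0.11 and 0.06 on all arrays, and G1/S control medians spread from -0.11 to 0.28 over 5 genes.

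Afmid, the neighbour of Tk1, was looked up after the Tk1 values were seen. It encodes kynurenine formamidase, an enzyme of tryptophan breakdown with no known part in the cell cycle. Afmid had ratios of -0.86, -0.84 and -1.01 at 7 g/kg, -0.04, 0.29, -0.22 and 0.26 at 5 g/kg, and 0.43, 0.69 and 0.74 in maltose livers. As with Tk1, the 3 groups were separate and in the same order. It fell by 1.52 (SE 0.14, adjusted p = 1.55e-05) at 7 g/kg and by 0.55 (SE 0.13, adjusted p = 0.0340) at 5 g/kg, and the doses differed by -0.98 (SE 0.13, adjusted p = 0.00157). Within slides the 7 g/kg change was -1.75 and -1.55, and the 5 g/kg change was -0.48, -0.46 and -0.40. The 5 g/kg call was lost without any 1 of 4 arrays (arrays 1 and 3 at 5 g/kg, and maltose arrays 2 and 3, -0.45 to -0.51) and under 7 of 15 settings, while the 7 g/kg call held under all of them. Syngr2, on the other side of Tk1, had changes of -0.25 (adjusted p = 0.216) and -0.31 (adjusted p = 0.124). Neither passed, yet every ethanol array of Syngr2 lay under every maltose array. Such groups did not overlap for 25.4% of all genes at 7 g/kg and 16.9% at 5 g/kg. Birc5, the next gene beyond Afmid, is given above. Which part of each transcript the Tk1 and Afmid probes bind was not analysed here.

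Further genes of the same pathways were counted from lists drawn up for each pathway. Of 44 further DNA replication genes, 39 were tested. At 7 g/kg 1 rose and 4 fell against maltose, where 9.01% of all genes passed. At 5 g/kg 0 rose and 4 fell, where 3.80% of all genes passed. An unadjusted limma p under 0.05 was found for 8 and 11 of the 39, against 20.1% and 15.5% of all genes. The median change of the 39 was -0.05 at 7 g/kg and -0.13 at 5 g/kg. Mcm10, a replication initiation factor, had the largest change, at -0.33, -0.70 and -0.36 in 7 g/kg livers, -0.35, -0.18, -0.55 and -0.32 in 5 g/kg livers, and 0.66, 0.73 and 0.65 in maltose livers. Ethanol and maltose arrays of Mcm10 did not overlap, with changes of -1.14 (SE 0.13, adjusted p = 6.40e-05) and -1.03 (SE 0.12, adjusted p = 0.000237). The 7 g/kg call of Mcm10 held under all 15 settings, and the 5 g/kg call under all but Cy5 alone (-1.02, adjusted p = 0.0531).

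Dut, which breaks down dUTP, fell by 0.62 at 7 g/kg (adjusted p = 0.00272) and by 0.40 at 5 g/kg (adjusted p = 0.0470). A second Dut probe gave -0.28 and -0.12. At 7 g/kg Pold2, a subunit of DNA polymerase delta, fell by 0.51, while Chaf1b, a histone chaperone of new DNA, rose by 0.45. At 5 g/kg Rpa3, a subunit of the single-strand binding protein, fell by 0.43 and Rnaseh2a, a subunit of ribonuclease H2, by 0.40. Each of these 4 calls was lost without any 1 of several arrays: for Pold2 arrays 2 and 3 at 7 g/kg and maltose arrays 2 and 3 (-0.43 to -0.51), and for Chaf1b array 3 at 7 g/kg and maltose arrays 1 and 2 (0.40 to 0.45). For Rpa3 these were arrays 1 and 4 at 5 g/kg and all 3 maltose arrays (-0.37 to -0.44), and for Rnaseh2a all arrays but array 2 at 7 g/kg (-0.33 to -0.44). The 5 g/kg call of Dut was lost without any 1 of the 10 arrays (-0.33 to -0.46). From Cy5 alone the calls of Dut, Pold2, Chaf1b, Rpa3 and Rnaseh2a were all lost, and over the 15 settings the 5 g/kg call was lost under 8 for Dut and 9 for Rnaseh2a, while that of Pold2 at 7 g/kg and of Rpa3 at 5 g/kg was lost under 3 each. In the deposited series table Pold2 fell by 0.79 and Rpa3 by 0.85. Between 7 and 5 g/kg limma called 0 of these 39 genes, and 6 had an unadjusted p under 0.05, against 1.57% and 10.8% of all genes.

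Of 46 further mitosis genes, 44 were tested. At 7 g/kg 2 rose and 1 fell, 1 rose at 5 g/kg, and 1 was higher at 7 than at 5 g/kg. Over all genes, 9.01%, 3.80% and 1.57% passed in these comparisons, in the same order. Ccnf, cyclin F, a subunit of a ubiquitin ligase, had ratios of -0.10, -0.42 and 0.04 at 7 g/kg, 0.03, 0.02, 0.10 and -0.25 at 5 g/kg, and -0.51, -0.98 and -1.03 in maltose livers. It rose by 0.68 (adjusted p = 0.0132) and 0.81 (adjusted p = 0.00601), with every ethanol array above every maltose array. Without array 3 at 7 g/kg, maltose array 2 or maltose array 3, the 7 g/kg call was lost (0.58 to 0.61). Spc24, a kinetochore protein, fell by 0.88 at 7 g/kg (adjusted p = 0.000998), with a change of -1.66 from the processed signals. It had a value under only 14 of the 15 settings, and the size of the fall differed between them (-0.81 to -1.69). At 5 g/kg the change of Spc24 was -0.43 and did not pass (adjusted p = 0.0882). Nek2, a centrosome kinase, rose by 0.50 at 7 g/kg (adjusted p = 0.0169). The Nek2 call was lost without any 1 of 4 arrays (arrays 1 and 2 at 7 g/kg and maltose arrays 2 and 3, 0.46 to 0.48), and Nek2 rose by 0.94 with the processed signals. Smc4, a condensin subunit, was 0.45 higher at 7 than at 5 g/kg (adjusted p = 0.0441), a call lost without any 1 of the 10 arrays and under 7 of 15 settings. From Cy5 alone the calls of Ccnf, Spc24 and Nek2 were lost too, and both Ccnf calls in the deposited series table.

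Of 26 further G1/S genes, 20 were tested, and 2 fell at 7 g/kg: Cdk4, the partner of cyclin D, and E2f6, a repressive E2F factor, each by 0.44. The Cdk4 call was lost without any 1 of 5 arrays (arrays 2 and 3 at 7 g/kg and all 3 maltose arrays, -0.39 to -0.46), and the E2f6 call without array 3 at 7 g/kg or maltose array 1 or 3 (-0.35 to -0.44). Each was also lost under 4 of 15 settings: processed signals, median centring, Cy5 alone and the slide block. Limma called 0 of the 20 at 5 g/kg and 0 between the doses, with 1 and 3 at an unadjusted p under 0.05. Over all genes, 15.5% and 10.8% were under that cut. The adjusted threshold was passed by 9.01% of all genes at 7 g/kg, 3.80% at 5 g/kg and 1.57% between the doses. Of 6 further CDK inhibitor genes, 5 were tested and 1 rose. That was Cdkn1a, which encodes the CDK inhibitor p21, at 0.18, 0.39 and -0.06 in 7 g/kg livers, 0.26, 0.11, -0.06 and 0.25 in 5 g/kg livers, and -2.60, -2.07 and -2.50 in maltose livers. Its changes were 2.56 (SE 0.15, adjusted p = 2.65e-07) and 2.53 (SE 0.14, adjusted p = 3.95e-07), larger in size than that of any of the 27 genes, and the ranges of the 2 doses overlapped. These lists were drawn up with earlier results of these data known, so they are a description of the pathway and not independent of it.

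**Figure D4:**
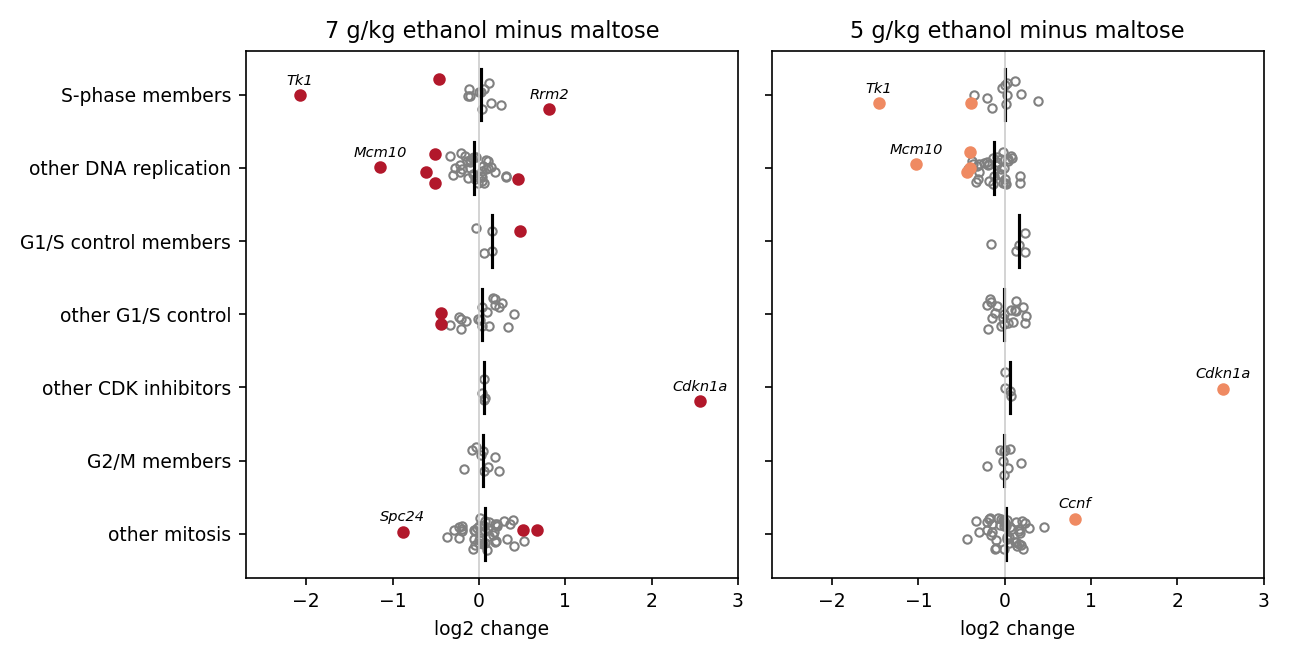
Log2 change against maltose of every tested gene in the 3 classes and in 4 further lists of cell cycle genes, at 7 g/kg (left) and 5 g/kg (right); filled points passed the adjusted threshold of 0.05, and black lines are list medians. Most points lie within 0.5 of 0, with Tk1, Mcm10 and Cdkn1a far out at both doses.

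Cell type markers moved in places beside these results. Against maltose, 9.01% of all genes passed at 7 g/kg and 3.80% at 5 g/kg. The summed signals below cover only the markers of a list with a value on every array. All 8 tested hepatocyte markers were well above background on every array, and 2, Ttr and Tat, were higher at 7 g/kg, by 0.69 and 0.71. The summed hepatocyte signal, over 6 of the 8, was 504980 to 535254 at 7 g/kg, 480534 to 529754 at 5 g/kg and 481042 to 504417 in maltose livers. Of 10 endothelial markers, 3 passed at each dose and were higher (Lyve1 by 1.72 and 1.29, with Cdh5 at both, Pecam1 at 7 g/kg and Stab1 at 5 g/kg). The median over all 10 was 0.18 and 0.25, and their summed Cy5 signal was 5663 to 5926 at 7 g/kg, 5263 to 6006 at 5 g/kg and 4272 to 4668 in maltose livers. Of 9 erythroid markers, Klf1, a factor of red cell precursors, and Tfrc, the transferrin receptor, passed and were lower at both doses (changes of -0.61 and -0.79 for Klf1 and of -1.0 and -0.66 for Tfrc), and Alas2, the heme synthesis enzyme of red cells, was 0.63 higher at 7 g/kg. The median over all 9 erythroid markers was -0.21 at 7 g/kg and -0.08 at 5 g/kg, and 4 of the 9 had a change above 0 at each dose. The largest upward changes in the list, 1.11 and 1.37, did not pass. The summed erythroid signal was 3371 to 4349 at 7 g/kg, 2746 to 3784 at 5 g/kg and 3229 to 3911 in maltose livers. Of 8 neutrophil markers, S100a8 and S100a9 were higher at 7 g/kg by 1.28 and 1.41, with summed signals of 3328 to 3974, 2814 to 3996 and 2590 to 4652. Of 11 lymphocyte markers, 2 were higher at 7 g/kg and 1 at 5 g/kg, with summed signals of 3466 to 3881, 3899 to 4211 and 3317 to 3968. Of 9 stellate cell and fibroblast markers Dcn was higher at 5 g/kg by 0.74. The median over all 9 was 0.15 at 7 g/kg and 0.19 at 5 g/kg. The summed stellate and fibroblast signal was 8182 to 9119 at 7 g/kg, 9391 to 10400 at 5 g/kg and 6981 to 8326 in maltose livers. Of 8 cholangiocyte markers Spp1 was lower at 5 g/kg, with a change of -0.48. The median over all 8 was 0.12 at 7 g/kg and 0.07 at 5 g/kg, and 6 of the 8 had a change above 0 at each dose. None of 9 Kupffer cell and macrophage markers passed. Between the doses 1 hepatocyte marker and 1 neutrophil marker passed, both higher at 7 g/kg. The part of these cells in the values of the replication and mitosis genes was not tested.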

How the data were processed

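Liver RNA (Cy5) of 10 arrays was hybridised against one reference RNA (Cy3). Spots were quantified with Agilent Feature Extraction 11.5.1.1, per the file headers, as an unnormalized median intensity of spot and background per channel and as a processed intensity with background subtracted and dyes balanced. It also wrote a log10 ratio of red over green, per the headers of the deposited files. A table for the series, as deposited, gives log2 ratios for 40599 probes, a scale read from its slope of 3.32 to 3.34 on the log10 ratio. Its column medians were 0.014, -0.073 and 0.076 at 7 g/kg, -0.042, -0.010, -0.066 and 0.045 at 5 g/kg, and 0.062, 0.025 and 0.014 in maltose livers, and the step between scanner and table is not given in the sources used here. Its direction is that of Cy5 over Cy3.

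From the median intensities, log2 Cy5 over Cy3 was computed (R 4.3.3; limma 3.58.1) by normexp with an offset of 50, loess within each array, control spots left out and outlier spots (2.42% to 5.83% per array) too, no spot being saturated, then the mean of a probe's spots. Probes well above background in Cy5 on at least 3 of 10 arrays, with at least 2 values in every group, were kept (33943 of 41174), giving 26124 genes, 15112 of them with a symbol found through the probe's accession (24375 probes had 1). Each gene took its probe with the highest mean signal. One limma fit of the 3 groups gave moderated tests and 95% intervals, and the number of arrays limits their precision. The code was checked on simulated data. Promoter windows are from RefSeq, GRCm38.p6. Groups and replicates follow the labels. Alternatives changed the background correction, normalization, channel, filter, probe choice, outlier spots, slide block, replicate block, variance model, arrays and threshold. All 34 genes are named. Other cell cycle genes are named where they passed in any comparison, up to 8 per list by smallest p. Markers are named where they passed against maltose, save those of the lymphocyte list, and Tk1's neighbours after their values were seen. One counted gene of the further DNA replication list is not reported here by name. The genes and lists were chosen with earlier results of these data known, so no test over a list was made.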

Additional observations from a re-analysis of the deposited data

Results flagged for a closer look

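Mcm7 at 5 g/kg had 1 array apart from the others: array 1 stood at 0.16, while arrays 2, 3 and 4 stood at -0.26, -0.33 and -0.30. The gap was 0.855 of the range of the 4 values, over the 95% limit for 4 samples of Dixon's test for a distant value. Only the 4 arrays at 5 g/kg could be searched, over 27 genes, and chance alone gives such a gap in about 1 of 20 groups. Without that array the change against maltose was -0.46 (adjusted p = 0.0395), and with it -0.35 (adjusted p = 0.163).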

How the results depend on the processing

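Over 15 alternatives and 10 single arrays left out, no value that passed the test changed sign. Of 81 pairs of a gene and a comparison, 7 passed, and 2 of these, Tk1 at each dose against maltose, passed throughout; of the 74 that did not pass, 0 did so under the alternatives and 1 did with an array left out, Mcm7 at 5 g/kg. Against maltose at 7 g/kg the count of 4 became 3 under plain background subtraction, processed signals, median centring, the series table and probes bright on all 10 arrays, 2 with the slide as a block and 1 from Cy5 alone. At 5 g/kg the count of 2 became 1 under plain background subtraction, processed signals, median centring, Cy5 alone, the series table, the slide block, the replicate block and a fit of only the 2 groups. Between the doses the count of 1 became 0 under plain subtraction, processed signals, Cy5 alone, the series table and the replicate block. With single arrays left out, these counts were 2 to 4, 1 to 2 and 0 to 1, in fits where the spread was pooled over groups. Medians over the S-phase genes moved at 7 g/kg to -0.095 (Cy5 alone) and -0.036 (probes bright on all 10 arrays), at 5 g/kg to -0.041 (median centring), -0.035 (slide block) and -0.177 (probes bright on all 10 arrays), and between the doses to 0.064 (Cy5 alone) and -0.012 (bright on all 10). G2/M medians moved at 7 g/kg to 0.121 (median centring), -0.148 (Cy5 alone) and -0.048 (slide block), at 5 g/kg to 0.076 (processed signals) and -0.123 (Cy5 alone), and between the doses to -0.046 (Cy5 alone). Left-out arrays gave S-phase medians of -0.016 to 0.052 at 7 g/kg, -0.051 to 0.011 at 5 g/kg and -0.014 to 0.071 between doses, and G2/M medians of 0.0022 to 0.057, -0.048 to 0.070 and -0.016 to 0.049. Probes bright on all arrays leave 18 of the 27 genes; otherwise the cause was not tested. Over all genes, the 7 g/kg count of 2355 was 520 from Cy5 alone, 1519 with processed signals and 1506 to 2360 with arrays left out; the 5 g/kg count of 992 was 125, 455 and 469 to 1068, and 584 in the series table and 1546 at a threshold of 0.1; the count of 410 between doses was 38, 117 and 203 to 423, and 138 in the series table and 622 at a threshold of 0.1. Under median centring the share of higher calls was 67.0% in place of 51.7% at 7 g/kg, 75.4% in place of 58.7% at 5 g/kg and 52.4% in place of 42.2% between doses. Arrays with the same replicate number did not deviate together (correlations of -0.11 to 0.05 for 7 g/kg with maltose, 0.02 to 0.20 for 5 g/kg with maltose and -0.20 to 0.19 between doses), so the numbers were not taken as pairs. With the replicate block the counts were 4, 1 and 0 of the 27 genes and 2319, 935 and 289 of all genes.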
